A study of Mus musculus with 6 samples.

Results

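The genes described here encode the enzymes that write, copy and remove methyl groups on cytosine in DNA. They comprise 3 DNA methyltransferase genes (Dnmt1, Dnmt3a and Dnmt3b), Uhrf1, 3 TET dioxygenase genes (Tet1, Tet2 and Tet3) and 2 thymine glycosylase genes (Tdg and Mbd4), chosen by symbol. All 9 were rows of the count table of 31017 genes, and all 9 were among the 14268 genes tested. The libraries came from mouse Th17 cells, helper T cells named for interleukin 17, which were differentiated in culture. Total RNA was sequenced from 3 control libraries, whose genotype is labelled WT, and 3 RTF1-deficient libraries, labelled KO. RTF1 accompanies RNA polymerase II with the PAF1 complex and promotes ubiquitination of histone H2B, and the series asks how its loss changes Th17 cells. The labels give no strain, age, culture time or means of deletion, and they do not say whether replicates came from separate animals or cultures, so p-values measure the spread between these libraries only.

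DNA methylation in mammals falls almost entirely on cytosines followed by guanine (CpG). DNMT1 copies the pattern onto the new strand after each round of DNA replication, guided by UHRF1, which binds CpG methylated on one strand. DNMT3A and DNMT3B set new marks. TET enzymes oxidise the methyl group with oxoglutarate and iron, and TDG excises the most oxidised bases, which base excision repair replaces with unmodified cytosine. MBD4 removes thymine that arises when methylated cytosine loses its amino group. In T cells these enzymes are known for shaping the stability of cytokine genes and of helper lineages.

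Dnmt1 and Uhrf1 ranked the 6 libraries in the same order, and the sequences at their starts are shown for that reason. RefSeq (GRCm38.p6) gives 14 start windows for the 9 genes, each 300 bases long with 250 bases before the start and 50 after it. They were searched on both strands for the E2F words TTTCCCGC, TTTCGCGC, TTTGCCGC and TTTGGCGC. E2F factors are transcription factors known for driving genes of the G1 to S transition. The words stood in 1 of the 3 windows of Dnmt1 and 1 of the 2 windows of Uhrf1, and in 2.26% of the 32851 windows of all genes. The other 12 windows of the 9 genes held none. The windows with a match are the Dnmt1 window at chr9:20952574-20952873 (minus strand) and the Uhrf1 window at chr17:56304063-56304362 (plus strand), written 5′ to 3′ along the gene, with the matched words in capitals.
Dnmt1: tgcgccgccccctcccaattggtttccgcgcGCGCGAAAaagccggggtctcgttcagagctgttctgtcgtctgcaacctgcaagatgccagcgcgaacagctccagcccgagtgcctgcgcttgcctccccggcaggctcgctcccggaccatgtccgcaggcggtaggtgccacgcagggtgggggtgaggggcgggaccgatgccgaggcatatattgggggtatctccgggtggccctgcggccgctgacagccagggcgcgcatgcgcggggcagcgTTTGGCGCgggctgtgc
Uhrf1: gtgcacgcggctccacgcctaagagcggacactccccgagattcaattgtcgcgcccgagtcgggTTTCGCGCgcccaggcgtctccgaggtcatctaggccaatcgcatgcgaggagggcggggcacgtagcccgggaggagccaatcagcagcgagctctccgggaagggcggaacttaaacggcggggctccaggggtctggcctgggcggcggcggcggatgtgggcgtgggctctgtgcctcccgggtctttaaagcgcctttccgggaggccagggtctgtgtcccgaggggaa
The Dnmt1 window holds GCGCGAAA, the reverse complement of TTTCGCGC, beginning 219 bases before the start, and TTTGGCGC beginning 33 bases after it. The Uhrf1 window holds TTTCGCGC beginning 185 bases before the start. No 2 matches overlapped. By gene, 2 of the 9 genes described here (22.2%) held a word, against 4.62% of 10397 tested genes. So did 8 of the 15 genes of a DNA replication list that had a window. Those 8 include Rfc3, which was not called between KO and control, so a word and a call did not always go together. A match describes letters in a window and is no evidence of binding. Both windows hold 33 CpG, more than 91.4% of all windows, whose median is 7.

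Total counts ran from 16489813 to 51271226 per library, and no member had fewer than 32 counts in any of them. CPM values, counts scaled to a common library total, were scaled with TMM factors, which correct for differences in library composition. Rtf1 itself held 88.3 to 94.0 CPM in control and 26.2 to 45.3 CPM in KO (log2 fold change −1.42 ± 0.191, SE, adjusted p = 0.000755 in edgeR). Replicate 3 of each group carried Y-linked counts, 11376 and 5147, where the other libraries held 1 to 3. The helper T cell marker Cd4 (218 to 539 CPM) and the Th17 cytokine gene Il17f (329 to 1538 CPM) were present in every library, and the 8 markers of that list summed to 2297 to 2886 CPM in control and 1194 to 1783 in KO. Of 6 myeloid markers, which summed to 2.08 to 5.04 CPM in control and 16.4 to 27.3 in KO, both tested ones were called higher. Cd68 made up most of the sum, Csf1r held 0.206 to 0.451 CPM in control and 0.588 to 1.63 in KO, and Lyz2 0 to 0.095 and 0.294 to 1.75. S100a8, Itgam and Adgre1 did not exceed 0.134 CPM. Of 6 CD8 and NK markers, at 6.57 to 11.8 CPM in all libraries, 1 of 3 tested was called higher. In that list Eomes held 0.061 to 0.165 CPM in control and 1.09 to 2.24 in KO, while Ncr1 and Klrb1c were at 0 throughout. Csf1r and Eomes were scarce in control and passed the filter on low counts only with the help of their KO libraries. Their calls are therefore no separate result. Among all tested genes 23.2% were called higher. The 6 B cell markers summed to 3.66 to 18.1 CPM. Any part of these cell types in the results below was not tested.

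Among the 9 genes, 5 were lower in KO (Dnmt1, Uhrf1, Dnmt3b, Tet1 and Mbd4), 4 were not called and none was higher, by edgeR's quasi-likelihood test with an adjusted p under 0.05. Of all tested genes, 46.1% were called, 22.9% lower and 23.2% higher, so that a call by itself is common in this comparison. The median log2 fold change of the 9 genes was −0.99, beside 0.013 over all tested genes. In 6 of them every KO library lay below every control library, as did 28% of all tested genes (57.9% lay wholly on one side or the other, 29.9% above). The count of lower calls was 5 or 6 under each of the 14 alternatives run. In bulk RNA, fewer cells of a kind (such as cycling cells) and less RNA per cell cannot be told apart.

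**Figure D1:**
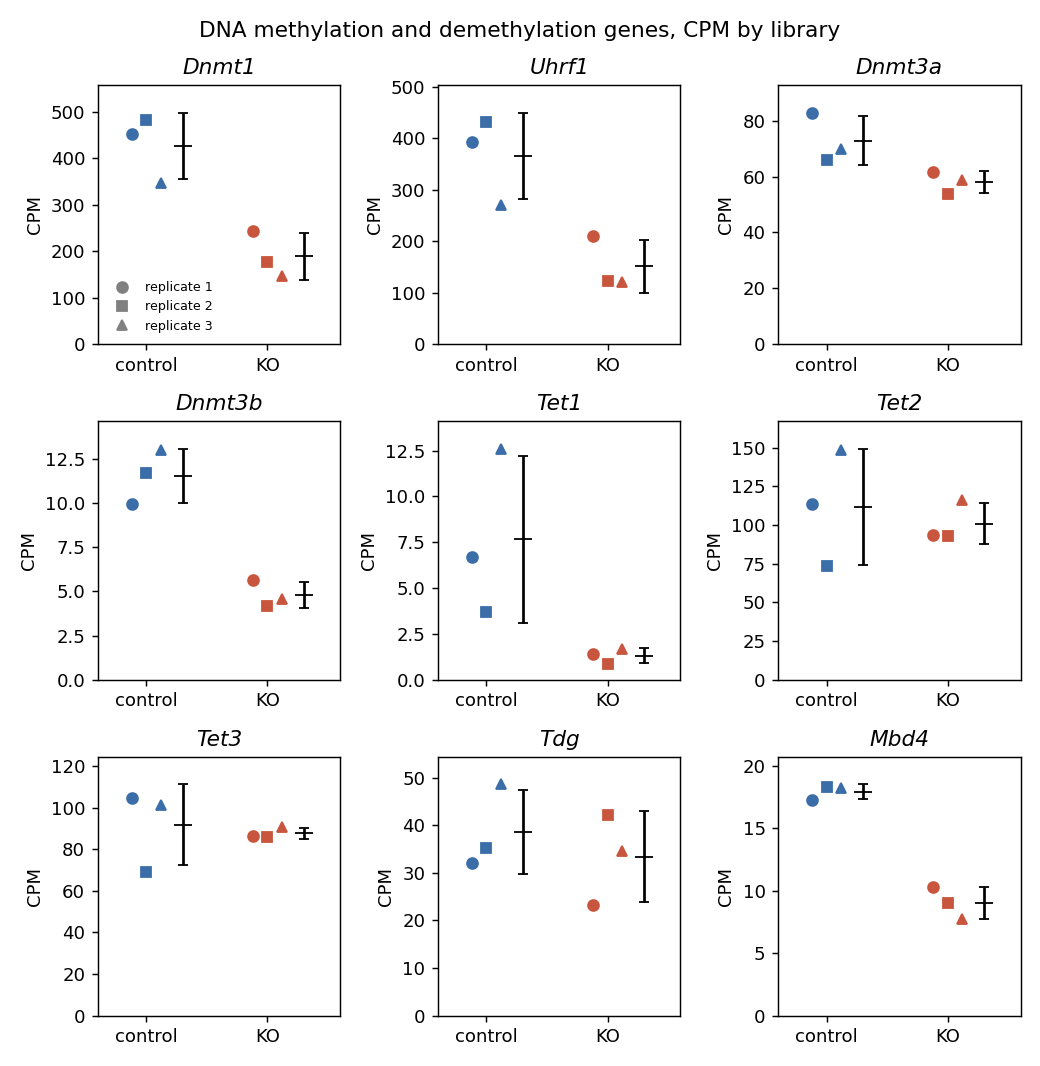
CPM of each gene in the 3 control (blue) and 3 KO (red) libraries, with marker shape for the replicate number and black bars for the mean ± SD (n = 3). In Dnmt1, Uhrf1, Dnmt3a, Dnmt3b, Tet1 and Mbd4 all KO points lie below all control points, while Tet2, Tet3 and Tdg overlap.

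The maintenance pair fell in KO to 44.2% (Dnmt1) and 41.3% (Uhrf1) of the control level. Dnmt1 (ENSMUSG00000004099.16, chr9:20907209-20959888, minus strand) held 453, 481 and 346 CPM in control replicates 1, 2 and 3, and 244, 176 and 146 CPM in KO replicates 1, 2 and 3. Every KO library was below the lowest control library, and KO replicate 1 was the highest of its group. The means were 427 ± 71.5 and 189 ± 50.4 CPM (SD, n = 3), which is a log2 fold change of −1.18 ± 0.207 (SE, adjusted p = 0.00234 in edgeR). Uhrf1 (ENSMUSG00000001228.14, chr17:56303321-56323486, plus strand) held 394, 433 and 271 CPM in control and 210, 123 and 120 CPM in KO. Its groups did not overlap either, with control replicate 3 the lowest control library of both genes. The means were 366 ± 84.3 and 151 ± 51.1 CPM (mean ± SD, n = 3), with a log2 fold change of −1.28 ± 0.252 (SE, adjusted p = 0.00385 in edgeR). Both calls held under all 14 alternatives, with log2 fold changes of −1.41 to −1.02 for Dnmt1 and −1.60 to −1.14 for Uhrf1. Part of the Uhrf1 count is uncertain, because 15.4% of the 50-base stretches in its transcripts are also found in Gm5648 and Gm15953. The log2 ratio of Dnmt1 to Uhrf1 within a library averaged 0.23 ± 0.10 over the control libraries and 0.34 ± 0.16 over the KO libraries (SD, n = 3; exact permutation test, two-sided, p = 0.5).

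Of the 2 de novo methyltransferase genes, Dnmt3b was called lower and Dnmt3a was not. Dnmt3b (ENSMUSG00000027478.15, chr2:153649450-153687730, plus strand) held 9.91, 11.7 and 13.0 CPM in control and 5.62, 4.17 and 4.58 CPM in KO. The groups were separated by more than 4 CPM, and control replicate 3 was the highest. Dnmt3b fell from 11.5 ± 1.55 to 4.79 ± 0.749 CPM (mean ± SD, n = 3), with a log2 fold change of −1.27 ± 0.209 (SE, adjusted p = 0.00177 in edgeR), and the call held under all 14 alternatives (−1.43 to −1.15). It shares 9.81% of its stretches with its near copy Dnmt3c, whose row held at most 1 count in any library. Dnmt3l, the catalytically inactive partner of the de novo enzymes, likewise held at most 1 count.

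Dnmt3a (ENSMUSG00000020661.15, chr12:3806007-3914443, plus strand) held 82.9, 65.8 and 70.1 CPM in control and 61.5, 53.8 and 58.7 CPM in KO. The KO libraries were again below all control libraries, but the nearest values, in control replicate 2 and KO replicate 1, were close together. The means of 72.9 ± 8.91 and 58.0 ± 3.89 CPM (SD, n = 3) gave a log2 fold change of −0.33 (95% interval −0.61 to −0.047), which missed the threshold (edgeR adjusted p = 0.0562). With the replicate number as a block it was called (−0.33, adjusted p = 0.0266), and also without control replicate 2 (−0.41, adjusted p = 0.0388) and without control replicate 3 (−0.41, adjusted p = 0.0275). Over its 14 alternatives the adjusted p ran from 0.0266 to 0.191. Within each library the log2 ratio of Dnmt3a to Dnmt3b was 3.06, 2.49 and 2.42 in control and 3.44, 3.67 and 3.66 in KO. The ratio was thus higher in every KO library (difference 0.93; two-sided exact permutation p = 0.1, the least that 3 libraries against 3 allow; 0.25 adjusted over 20 such values). It restates the larger fall of Dnmt3b and is no separate result.

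Among the TET genes, Tet1 was the one called. Tet1 (ENSMUSG00000047146.17, chr10:62804570-62908996, minus strand) held 6.69, 3.67 and 12.6 CPM in control and 1.40, 0.855 and 1.68 CPM in KO, that is 110 to 531 counts and 32 to 37 counts. Control libraries spread widely, with replicate 3 the highest, yet the lowest of them exceeded every KO library. Tet1 fell from 7.66 ± 4.55 to 1.31 ± 0.419 CPM (mean ± SD, n = 3), with a log2 fold change of −2.57 ± 0.483 (SE, adjusted p = 0.00318 in edgeR), leaving 16.9% of the control level. It was the largest fall among the 9 genes, and only 0.925% of all tested genes had a lower fold change. The call held under all 14 alternatives, with the largest fall (−2.93) when control replicate 2 was left out and the smallest (−2.03) when control replicate 3 was.

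Tet2 and Tet3, the TET genes with the higher levels per length in these cells, were not called. Tet2 (ENSMUSG00000040943.12, chr3:133463679-133545139, minus strand) held 113, 73.7 and 149 CPM in control and 93.7, 93.0 and 116 CPM in KO. All KO libraries lay inside the control range. The log2 fold change was −0.15 (95% interval −0.67 to 0.37, edgeR adjusted p = 0.619), with values from −0.39 without control replicate 2 (adjusted p = 0.0917) to 0.064 without control replicate 3, where the sign turned. Tet3 (ENSMUSG00000034832.15, chr6:83362373-83459084, minus strand) held 105, 69.3 and 101 CPM in control and 86.3, 86.0 and 90.7 CPM in KO. Its KO libraries also fell inside the control range, where control replicate 2 was the lowest library of both genes. The log2 fold change of Tet3 was −0.064 (95% interval −0.42 to 0.29, edgeR adjusted p = 0.761), with −0.25 when control replicate 2 was left out (adjusted p = 0.0895) and 0.018 when scaled by library size alone.

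The TET genes were also compared with one another within each library. The log2 ratio of Tet2 to Tet1 was 4.07, 4.30 and 3.55 in control and 5.997, 6.66 and 6.06 in KO. The ratio of Tet3 to Tet1 was 3.95, 4.21 and 3.00015 in control and 5.88, 6.55 and 5.70 in KO. Both ratios were higher in all KO libraries (differences 2.27 and 2.32; two-sided exact permutation p = 0.1 each, the least possible; adjusted p = 0.25). They largely restate the fall of Tet1 (log2 fold change −2.57), since Tet2 (−0.15) and Tet3 (−0.064) were not called. Tet2 to Tet3 gave 0.25 ± 0.26 in control and 0.20 ± 0.14 in KO (SD, n = 3; exact permutation test, two-sided, p = 0.9).

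The 2 glycosylase genes also differed in call. Mbd4 (ENSMUSG00000030322.12, chr6:115840697-115853371, minus strand) held 17.3, 18.3 and 18.2 CPM in control and 10.3, 9.03 and 7.73 CPM in KO. The control libraries nearly coincided, and all KO libraries were well below them. Mbd4 fell from 17.9 ± 0.592 to 9.03 ± 1.30 CPM (mean ± SD, n = 3), with a log2 fold change of −0.99 ± 0.163 (SE, adjusted p = 0.00177 in edgeR), and was called under all 14 alternatives (−1.10 to −0.89). The antisense gene Gm44206 overlaps 5% of its exon bases but held 0 to 5 counts. Tdg (ENSMUSG00000034674.18, chr10:82629828-82650799, plus strand) held 32.0, 35.2 and 48.6 CPM in control and 23.2, 42.2 and 34.7 CPM in KO. The groups overlapped, KO replicate 1 being the lowest and control replicate 3 the highest library. Its log2 fold change was −0.21 (95% interval −0.74 to 0.32, edgeR adjusted p = 0.486), which was −0.012 without KO replicate 1 and −0.42 without KO replicate 2. The Tdg count is uncertain: Tdg-ps, Gm9855, Gm5597 and a few others contain 41.2% of its 50-base stretches, and 6.83% of its exon bases overlap Glt8d2. The log2 ratio of Tdg to Mbd4 overlapped between the groups (1.08 ± 0.29 and 1.85 ± 0.59; SD, n = 3; exact permutation test, two-sided, p = 0.2).

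**Figure D2:**
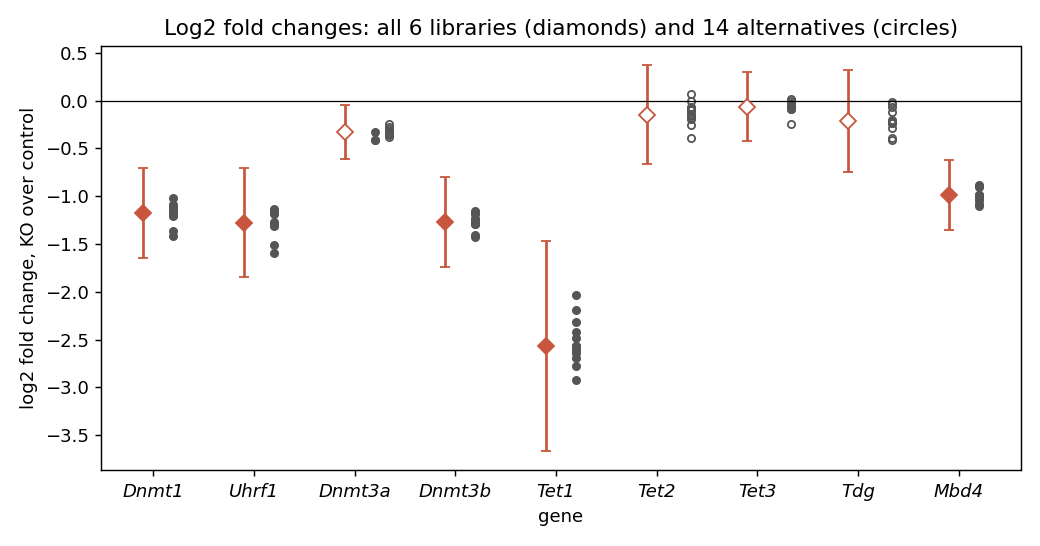
Log2 fold change of KO over control for each gene. Diamonds show the fit to all 6 libraries with its 95% interval and circles show the 14 alternatives, filled where the adjusted p was under 0.05. Dnmt1, Uhrf1, Dnmt3b, Tet1 and Mbd4 are filled throughout, and Dnmt3a is filled in 3 alternatives.

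Levels can be set roughly against one another once divided by exon length, here the merged exons of each gene in GENCODE M21. This length joins all annotated transcripts and may exceed that of the transcripts present in these cells. The places of Tdg and Uhrf1 are also uncertain, as 41.2% and 15.4% of their 50-base stretches are shared with other genes. On this scale of CPM per kb of exon, the control order was Uhrf1 (85.9 ± 19.8), Dnmt1 (57.8 ± 9.69), Tdg (7.18 ± 1.63), Tet2 (6.63 ± 2.22), Tet3 (5.49 ± 1.17), Dnmt3a (4.38 ± 0.535), Mbd4 (3.40 ± 0.112), Dnmt3b (2.26 ± 0.303) and Tet1 (0.495 ± 0.294; SD, n = 3 for each). Uhrf1 and Dnmt1 stood far above the rest, and their library ranges overlapped slightly. Tdg, Tet2, Tet3 and Dnmt3a overlapped as neighbours, whereas Dnmt3a, Mbd4, Dnmt3b and Tet1 were separated from one another. The order of the means was the same in KO, from Uhrf1 (35.4 ± 11.999) and Dnmt1 (25.6 ± 6.83) over Tdg (6.21 ± 1.78), Tet2 (5.98 ± 0.781), Tet3 (5.25 ± 0.159), Dnmt3a (3.49 ± 0.234), Mbd4 (1.71 ± 0.246) and Dnmt3b (0.937 ± 0.147) to Tet1 (0.0849 ± 0.0271). In KO the lowest Tet3 library (5.15) lay above the highest Dnmt3a library (3.70), while in control these genes overlapped.

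**Figure D3:**
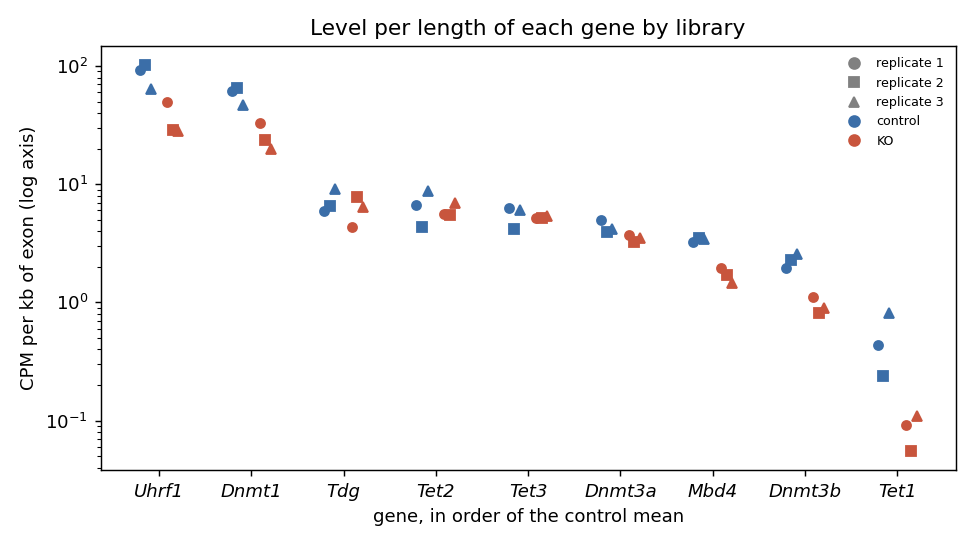
CPM per kb of exon (log axis) of each gene in every library, control in blue and KO in red, ordered by the control mean. Uhrf1 and Dnmt1 lie at the top and Tet1 at the bottom in both groups. The exon length joins all annotated transcripts of a gene.

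Since DNMT1 and UHRF1 act behind the replication fork, each gene was also set against 20 DNA replication genes in the same library. The mean log2 CPM of those 20 genes was 6.97, 7.21 and 6.43 in control and 6.14, 5.55 and 5.42 in KO. Ranked from the highest library to the lowest, this mean, Dnmt1 and Uhrf1 gave the same order of all 6 libraries, which is a description over libraries that share their scaling. The difference between Dnmt1 and this mean, on the log2 CPM scale, was 1.85, 1.71 and 2.005 in control and 1.79, 1.91 and 1.77 in KO. These values overlapped (1.85 ± 0.15 and 1.82 ± 0.07; SD, n = 3; exact permutation test, two-sided, p = 0.8; adjusted p = 0.889). For Uhrf1 the difference was 1.65, 1.55 and 1.65 in control and 1.57, 1.39 and 1.49 in KO, an overlap as well (p = 0.2, exact permutation test; adjusted p = 0.286). Dnmt3b (−3.34 ± 0.54 and −3.44 ± 0.22) and Mbd4 (−2.70 ± 0.41 and −2.53 ± 0.21; SD, n = 3) overlapped between the groups too.

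The 4 genes that were not called had higher means in KO by this measure. The mean of the replication genes was itself lower in KO (difference −1.16), so a gene of unchanged level comes out higher here. None of the 4 had a positive log2 fold change of its own (−0.33 for Dnmt3a, −0.15 for Tet2, −0.064 for Tet3 and −0.21 for Tdg). Dnmt3a lay at −0.59, −1.16 and −0.30 in control and at −0.19, 0.20 and 0.46 in KO, with no overlap. Tet3 lay at −0.26, −1.09 and 0.24 in control and at 0.29, 0.87 and 1.09 in KO, again with no overlap. For each of these the exact permutation p was 0.1, the smallest possible (two-sided; adjusted p = 0.25). Tet2 (−0.12 ± 0.89 and 0.95 ± 0.52) and Tdg (−1.62 ± 0.69 and −0.68 ± 0.80; SD, n = 3) overlapped (p = 0.2 each, exact permutation test). Tet1 was at −4.21, −5.30 and −2.77 in control and −5.59, −5.68 and −4.62 in KO, which overlapped through control replicate 2 (p = 0.2, exact permutation test). This test does not use the replicate numbers. Within pairs of equal number, KO was higher in 3 of 3 for Dnmt3a, Tet3, Tet2 and Tdg, in 0 of 3 for Uhrf1 and Tet1, in 1 of 3 for Dnmt1 and in 2 of 3 for Dnmt3b and Mbd4. The log2 ratio of Tet3 to Dnmt1 was −2.11, −2.80 and −1.77 in control and −1.50, −1.03 and −0.68 in KO, higher in all KO libraries (p = 0.1, exact permutation test). That ratio largely restates the fall of Dnmt1 (log2 fold change −1.18), as Tet3 was not called.

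**Figure D4:**
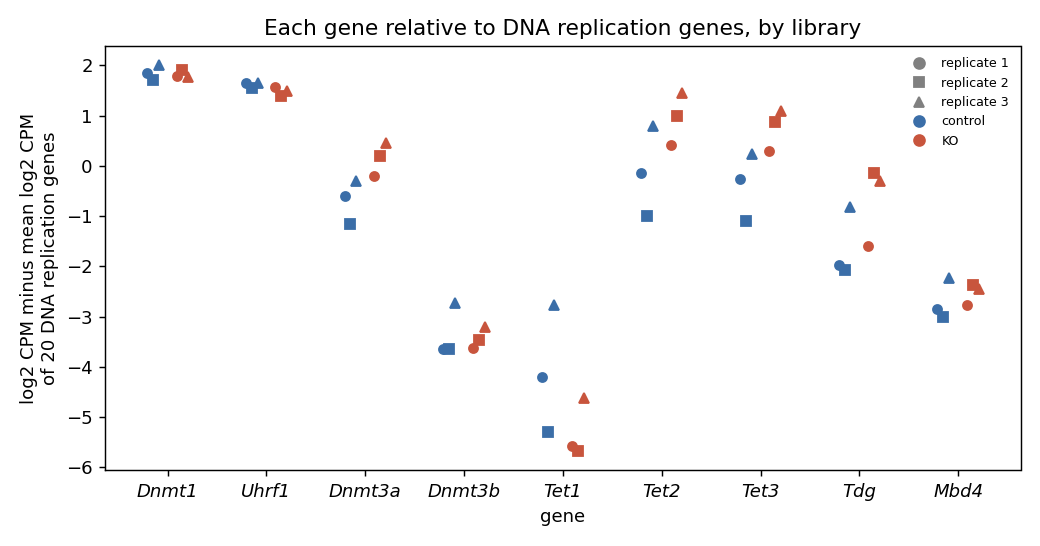
Log2 CPM of each gene minus the mean log2 CPM of 20 DNA replication genes in the same library, control in blue and KO in red. Dnmt1 and Uhrf1 keep within narrow, overlapping bands, whereas the KO points of Dnmt3a and Tet3 lie above all their control points. The mean of the replication genes was itself lower in KO.

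The replication list itself had 19 of 20 genes called lower and none higher, with a median log2 fold change of −1.22. This list and those below stand beside all tested genes, of which 22.9% were called lower and 23.2% higher. Pola1, the catalytic subunit of DNA polymerase alpha, fell from 135 ± 30.8 to 47.9 ± 19.6 CPM (mean ± SD, n = 3), with a log2 fold change of −1.49 (adjusted p = 0.00307 in edgeR). Cdc45, part of the replicative helicase, fell from 71.4 ± 18.1 to 27.4 ± 5.78 CPM (−1.38, adjusted p = 0.00153). Dnmt1 (−1.18), Uhrf1 (−1.28), Dnmt3b (−1.27) and Mbd4 (−0.99) all lay inside the range of these 20 genes, −1.49 to −0.38. Tet1 (−2.57) lay below it. The upper end of the range was Rfc3, which was not called, so lying inside it does not single out Dnmt1 and Uhrf1.

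Partners of maintenance methylation were counted next, a list of 10 genes for proteins that act with DNMT1 and UHRF1. By edgeR, 7 were lower, 3 were not called and none was higher, with a median log2 fold change of −0.60. Hells, a chromatin remodeller needed for normal DNA methylation, fell from 222 ± 49.7 to 83.7 ± 33.3 CPM (mean ± SD, n = 3), with a log2 fold change of −1.40 (adjusted p = 0.00368 in edgeR). Lig1, the ligase of lagging strand synthesis that also binds UHRF1, fell from 192 ± 53.3 to 73.0 ± 25.4 CPM (−1.39, adjusted p = 0.00386). Uhrf2, the paralog of Uhrf1, was not called (83.5 and 82.5 CPM, log2 fold change −0.018, adjusted p = 0.899).

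Partners of de novo methylation, mainly genes for proteins that place or read histone marks, gave 5 lower, 1 higher and 3 not called of 9 tested, with a median of −0.48. Cbx5, the heterochromatin protein HP1 alpha, fell from 492 ± 34.8 to 242 ± 56.3 CPM (mean ± SD, n = 3), with a log2 fold change of −1.03 (adjusted p = 0.00193 in edgeR). Suv39h1, a histone H3 lysine methyltransferase of heterochromatin, fell from 56.9 ± 13.2 to 28.6 ± 6.45 CPM (−0.99, adjusted p = 0.00564). Among the other histone methyltransferase genes of the list, Suv39h2 (−0.87) and Nsd2 (−0.86) were lower. Nsd1 (−0.31), Setdb1 (0.068) and Setd2 (0.22) were not called. The gene called higher was Zfp57, a zinc finger protein that protects methylated imprints, named here after its values were seen. It held 1, 3 and 0 counts in control and 32, 36 and 42 counts in KO, so its control level was at the floor of 3 counts and no fold is given. Zfp57 passed the filter on low counts through its KO libraries alone, so its call is no separate result.

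Readers of methylated CpG were called in both directions, 3 higher, 1 lower and 3 not called of 7, with a median of 0.13 that ran from 0.028 (without control replicate 2) to 0.20 (without KO replicate 1) when 1 library was left out. Zbtb4, a zinc finger protein that binds methylated CpG, rose from 33.2 ± 8.55 to 64.0 ± 7.20 CPM (mean ± SD, n = 3), with a log2 fold change of 0.95 (adjusted p = 0.0039 in edgeR). Mbd1, a methyl-CpG binding repressor, rose from 56.5 ± 2.57 to 85.5 ± 1.95 CPM (0.60, adjusted p = 0.00194). Mbd3, a subunit of the NuRD complex whose mammalian form binds methylated CpG poorly, fell from 80.9 ± 12.3 to 44.7 ± 7.17 CPM (−0.86, adjusted p = 0.00295).

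On the demethylation side, the list of TET partners and enzymes of oxoglutarate supply gave 5 lower, 3 higher and 4 not called of 12 tested, with a median of −0.20, which was −0.11 without control replicate 2 and 0.047 without a filter on low counts. The lower calls numbered 2 without KO replicate 2, 2 without KO replicate 3 and 3 without control replicate 1. Idh2, a mitochondrial enzyme that makes oxoglutarate from isocitrate, fell from 49.0 ± 4.85 to 12.8 ± 3.86 CPM (mean ± SD, n = 3), with a log2 fold change of −1.93 (adjusted p = 0.000342 in edgeR). Of the other genes in the list for enzymes of that step, Idh3g was lower (−0.60). Idh3a (−0.46), Idh3b (0.083) and Idh1 (0.059) were not called. Gadd45g and Gadd45a, stress-induced genes that have been linked to active demethylation, rose from 16.5 ± 2.60 to 62.0 ± 9.42 CPM (1.90, adjusted p = 0.000144) and from 9.18 ± 2.36 to 26.7 ± 3.64 CPM (1.55, adjusted p = 0.000932).

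The base excision repair list holds genes of the steps that complete demethylation after TDG, and also other glycosylases, which begin repair at other bases. It gave 7 lower, 6 not called and none higher of 13 genes, with a median of −0.57, which does not describe the steps after TDG alone. Ung, the uracil glycosylase, fell from 19.97 ± 4.66 to 7.12 ± 1.19 CPM (mean ± SD, n = 3), with a log2 fold change of −1.49 (adjusted p = 0.00111 in edgeR). Neil3, a glycosylase for oxidised bases, fell from 24.6 ± 5.15 to 9.23 ± 2.08 CPM (−1.41, adjusted p = 0.00135). Polb and Lig3, the polymerase and ligase of the short-patch route, were not called (−0.048 and −0.039). Among the other genes of this list that are not glycosylases, Apex1 was not called (−0.32), while Xrcc1 (−0.57) and Parp1 (−1.04) were lower.

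The methionine cycle supplies S-adenosylmethionine, the methyl donor of all DNA methyltransferases. Of 9 tested genes, 4 were lower, 1 was higher and 4 were not called, with a median of −0.41, and 2 were called higher with the replicate block, without KO replicate 1 or when scaled by library size alone. Ahcy, which removes the inhibitory product S-adenosylhomocysteine, fell from 218 ± 50.4 to 102 ± 29.7 CPM (mean ± SD, n = 3), with a log2 fold change of −1.10 (adjusted p = 0.00526 in edgeR). Adk, which clears the adenosine formed in that step, fell from 55.6 ± 7.98 to 22.6 ± 7.72 CPM (−1.30, adjusted p = 0.00264). Mat2a, which makes the donor itself, was not called (−0.37, adjusted p = 0.191).

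The genes whose pattern over the 6 libraries was most like that of each member were found among 9487 genes averaging 5 CPM or more, by the root mean square difference of centred log2 CPM. For Dnmt1 they were Ckap2l (0.041), Plk4 (0.046) and Thg1l (0.053). For Uhrf1 they were Mcm10 (0.056), Chaf1b (0.061) and Tk1 (0.066), and for Mbd4 Fam92a (0.041), Ccdc77 (0.047) and Suclg2 (0.051). Dnmt3b was nearest to Lancl1 (0.052) and Rbpj (0.092), and Dnmt3a to Atp9b (0.047), Zfp335 (0.049) and Patl1 (0.055). Tet3 was nearest to Nktr (0.040), Leng8 (0.054) and Kmt5c (0.067), and Tet2 to Ern1 (0.089), Med13l (0.095) and Wasl (0.0996). The nearest patterns were less close for Tdg, namely Use1 (0.12), Ift81 (0.13) and Napepld (0.13), and for Tet1, namely Sema4f (0.26), Pde1a (0.29) and Hif3a (0.29).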

How the data were processed

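RNA-seq counts of 3 control and 3 KO libraries were analysed. The authors deposited whole-number counts per gene symbol. STAR, featureCounts, DESeq2 and the build mm10 are named, per the submitters' processing notes, without versions or settings, and the annotation and strand setting are not given in the sources used here. Columns were matched to samples by the sample description, and 0 columns and 0 rows were left without a sample or gene name.

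KO was compared with control by edgeR 4.0.16 (R 4.3.3) with TMM factors, filterByExpr and glmQLFTest, and Benjamini-Hochberg adjustment over 14268 genes holding 99.9% of counts, with calls under 0.05. Log2 CPM used a prior count of 2. The standard error is the absolute log2 fold change over the square root of F. DESeq2 1.42.0, other scalings, filters, a replicate block and left-out libraries were alternatives. The fits were tested on simulated data. Total counts were 16489813 to 51271226, and intervals from counts cover less than the spread between libraries, which the tests use. Lengths, positions and shared 50-base stretches came from GENCODE M21 (GRCm38).

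The genes, the 9 related lists and the tests were chosen with earlier results of these data known. Of each list, up to 2 called genes per direction with the largest change and a mean of at least 5 CPM are named (0.5 CPM for germline and imprinted genes), and others are named as examples after their values were seen. Values of some list genes and look-alike genes are not reported here. Libraries of equal replicate number, which comes from the titles, deviated together (correlations 0.27, 0.13 and 0.38 across genes). Control replicate 2 and KO replicate 1, of unequal number, did so as well (0.20), while the remaining unequal pairs had negative values (−0.39 to −0.018). No label says what a number stands for, so the main fit and the permutation tests left pairing out. The replicate block was an alternative, under which edgeR called Dnmt3a (adjusted p = 0.0266).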

Additional observations from a re-analysis of the deposited data

How the results depend on the processing

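The number of genes called (6574) ran from 4460 without KO replicate 2 to 7050 without control replicate 3, and the number called lower (3269) from 2170 to 3700 with the same libraries left out. With the replicate block 7628 genes were called, 3771 of them lower. Of 126 fold changes of the 9 genes under alternatives, 120 kept their direction and side of the threshold, and Dnmt3a passed it in 3, among them the replicate block (−0.33), which changed no other call among the 9. The remaining 3 turned sign, all in genes that were not called: Tet2 when 1 library was left out (from −0.39 to 0.064, the latter without control replicate 3) and without the libraries numbered 3 in both groups (7.4e-05), and Tet3 with library size only (0.018). Among the single values per library, the KO difference of Dnmt1 over the replication genes (−0.032) ran from −0.11 to 0.043 when 1 library was left out and was 0.070 without the libraries numbered 3. For Dnmt3b over the replication genes (−0.094) it ran from −0.25 to 0.22 and was 0.0997 without those libraries, and for Tet2 over Tet3 (−0.056) from −0.14 to 0.093 and 0.013. The cause was not tested. Of 378 list counts and medians under alternatives, 340 stayed within 1.5 times the value given. Depth limits Tet1 most, with 32 to 37 counts per KO library.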

Other observations

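Genes that DNA methylation is known to silence or mark were counted as well. Among all tested genes 23.2% were called higher and 22.9% lower, so a call in these lists is common by itself. Of 16 germline genes whose promoters are methylated in somatic cells, 13 were too scarce to test, with at most 24 counts in any library, and Dazl, a classic gene of this kind, held 3 to 12 counts per library. Of the 3 tested, Tex14, a germ cell bridge protein gene, rose from 0.468 ± 0.073 to 4.86 ± 0.789 CPM (mean ± SD, n = 3), with a log2 fold change of 3.39 (adjusted p = 0.000192 in edgeR), in all KO libraries above all control libraries and under all 14 alternatives. Piwil2 (−0.49, adjusted p = 0.0761) and Tuba3a (0.055, adjusted p = 0.932) were not called. Piwil2 held 19.5 to 22.0 CPM in control and was thus not silent in these cells. Without a filter on low counts 2 genes of this list were called higher, and with the replicate block 1 was called lower.

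Of 12 tested imprinted genes, which are expressed from 1 parental allele, 2 were called higher, 2 lower and 8 were not called, with a median log2 fold change of 0.14. This median turned to −0.056 without control replicate 2 and to −0.29 without a filter on low counts. Calls in the imprinted list were no more frequent than among all tested genes, of which 46.1% were called. Igf2r, the receptor that clears insulin-like growth factor 2, rose from 131 ± 31.3 to 212 ± 29.4 CPM (mean ± SD, n = 3), with a log2 fold change of 0.70 (adjusted p = 0.0141 in edgeR), a call lost without control replicate 1 or KO replicate 3. Nnat rose from 1.56 ± 0.767 to 5.35 ± 0.880 CPM (1.80, adjusted p = 0.00807). Peg10 fell from 5.86 ± 2.91 to 1.56 ± 0.230 CPM (−1.90, adjusted p = 0.0045). Grb10 fell from 1.67 ± 0.368 to 0.657 ± 0.067 CPM (−1.35, adjusted p = 0.012), a call lost without KO replicate 2 and without the libraries numbered 3. Counts per gene do not tell alleles apart, and DNA methylation itself was not measured in these libraries.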
